A study of Mus musculus with 22 samples.

Results

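The nuclear-encoded respiratory chain genes were chosen by symbol, as protein-coding mouse genes whose names start with Nduf, Uqcr or Atp5, with Cox followed by a digit from 4 to 8, or that are Sdha, Sdhb, Sdhc or Sdhd. The rule found 96 of 21631 protein-coding genes on the autosomes and X. Binding of CREB1 and C/EBP beta was mapped by chromatin immunoprecipitation sequencing (ChIP-seq) in mpkCCD clone 11 cells, a single clone of a mouse cortical collecting duct line, which had been grown to confluence on permeable supports and kept in medium without serum or hormones. The groups were CREB1 after dDAVP and CREB1 after vehicle, with 4 libraries each, and C/EBP beta after dDAVP and C/EBP beta after vehicle, with 2 libraries each. dDAVP, an analog of vasopressin that is selective for the V2 receptor, was given at 0.1 nM for 30 min. The deposited data were 1 peak list per antibody and treatment. Read depth and the spread between cultures are therefore unknown, no test of the treatment could be made, and the lack of a peak in a list is no evidence that the factor did not bind. Collecting duct markers were not checked, since these lists measure binding and not expression.

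The respiratory chain passes electrons from NADH and succinate to oxygen and uses the energy released to pump protons. Complex I (NADH dehydrogenase, Nduf genes), complex II (succinate dehydrogenase, Sdh genes), complex III (cytochrome bc1, Uqcr genes) and complex IV (cytochrome c oxidase, Cox genes) carry the electrons, and complex V (ATP synthase, Atp5 genes) makes ATP. The transporting epithelium of the collecting duct uses that ATP for sodium transport. CREB1 is a leucine zipper activator that protein kinase A phosphorylates and that binds the cAMP response element (CRE). C/EBP beta is a leucine zipper factor of stress and acute phase responses. The promoters of respiratory chain genes are known for sites of NRF1, of ETS factors such as GABP, and of YY1.

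CREB1 peaks lay at the starts of a small group of these genes. The same 4 genes had a CREB1 peak over the promoter after dDAVP and after vehicle, and their promoters are shown first because the result turns on them. They were Ndufa10, an accessory subunit of complex I, Ndufv1, the core subunit that binds NADH and FMN, Ndufb5, an accessory subunit of the membrane arm of complex I, and Cox8a, the ubiquitous form of a small complex IV subunit. Each sequence is a RefSeq promoter window of 300 bases on build GRCm38.p6 (mm10), running from 250 bases before the listed gene start to 50 bases past it, read along the gene. Capitals mark the CRE, TGACGTCA, and its core, TGACG, on either strand. The windows are Ndufa10 at chr1:92473709-92474008 on the minus strand, Ndufv1 at chr19:4012706-4013005 (minus), Cox8a at chr19:7217567-7217866 (minus) and Ndufb5 at chr3:32736813-32737112 (plus).
Ndufa10: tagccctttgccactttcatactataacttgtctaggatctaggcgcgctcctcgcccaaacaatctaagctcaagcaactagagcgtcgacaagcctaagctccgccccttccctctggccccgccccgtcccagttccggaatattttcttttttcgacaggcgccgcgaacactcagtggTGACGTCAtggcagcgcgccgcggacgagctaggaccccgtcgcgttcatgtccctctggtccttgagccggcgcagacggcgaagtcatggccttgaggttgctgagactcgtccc
Ndufv1: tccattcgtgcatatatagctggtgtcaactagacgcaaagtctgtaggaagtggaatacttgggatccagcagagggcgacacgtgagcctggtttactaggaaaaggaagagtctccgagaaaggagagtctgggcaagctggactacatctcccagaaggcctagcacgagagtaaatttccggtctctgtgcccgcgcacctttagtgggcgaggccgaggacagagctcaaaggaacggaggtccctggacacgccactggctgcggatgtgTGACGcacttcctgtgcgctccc
Cox8a: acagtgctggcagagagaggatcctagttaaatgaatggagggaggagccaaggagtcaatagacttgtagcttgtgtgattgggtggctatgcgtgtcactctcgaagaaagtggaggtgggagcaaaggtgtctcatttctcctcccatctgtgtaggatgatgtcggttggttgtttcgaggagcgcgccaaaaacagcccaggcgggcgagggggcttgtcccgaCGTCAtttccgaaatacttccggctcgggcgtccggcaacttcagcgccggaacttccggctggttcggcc
Ndufb5: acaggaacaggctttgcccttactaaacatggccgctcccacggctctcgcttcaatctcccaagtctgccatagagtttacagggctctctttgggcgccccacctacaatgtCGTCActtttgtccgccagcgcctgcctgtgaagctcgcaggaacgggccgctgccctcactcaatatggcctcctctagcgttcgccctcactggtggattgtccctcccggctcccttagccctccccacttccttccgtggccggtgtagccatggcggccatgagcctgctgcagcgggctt

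A further 4 promoters had a CREB1 peak after vehicle alone. They belong to Ndufb2 and Ndufb6, accessory subunits of the membrane arm of complex I, to Uqcrfs1, the Rieske iron-sulfur protein of complex III, and to Atp5md, a small membrane subunit of ATP synthase. All 8 promoters with a CREB1 peak held the letters TGACG, as did 85.5% of all promoter windows with a CREB1 peak. In 7 of the 8 a TGACG stood within 25 bp of the centre of the vehicle peak. In Ndufb5 it was 42 bp away. To show this, the copy nearest to the centre of the vehicle peak is printed for each gene with 13 bases on either side. It is turned so that TGACG reads forward, with capitals for that copy or for the full CRE where it continues. The Atp5md stretch holds another TGACG, left in lower case, 10 bp from the centre of the vehicle peak.
Ndufa10: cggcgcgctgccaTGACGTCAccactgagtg
Ndufv1: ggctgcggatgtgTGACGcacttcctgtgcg
Cox8a: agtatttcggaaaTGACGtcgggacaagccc
Ndufb5: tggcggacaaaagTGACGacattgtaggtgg
Ndufb2: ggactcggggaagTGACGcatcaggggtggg
Ndufb6: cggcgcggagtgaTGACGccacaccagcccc
Uqcrfs1: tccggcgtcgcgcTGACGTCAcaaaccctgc
Atp5md: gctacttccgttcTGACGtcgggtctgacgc

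The middle of that TGACG lay 1 bp from the centre of the vehicle peak in Uqcrfs1, 2 bp in Atp5md and in Ndufb6, 3 bp in Ndufv1, 6 bp in Ndufb2, 8 bp in Ndufa10, 11 bp in Cox8a and 42 bp in Ndufb5. The median was 4.5 bp over these 8 peaks. For all 605 CREB1 vehicle peaks that overlapped a promoter window, 526 had a TGACG in a window, at a median of 18 bp from the peak centre. Within 25 bp lay 7 of the 8 peaks at respiratory chain genes (87.5%) and 332 of all 605 (54.9%). Part of a peak can lie outside its window, where the sequence was not read, so the distances over all peaks are upper values. The 4 genes of the dDAVP list had the same TGACG at 4 bp (Ndufa10), 13 bp (Ndufv1), 17 bp (Cox8a) and 71 bp (Ndufb5) from the dDAVP peak centre.

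The full CRE stood in 3 of the 8 promoters, those of Ndufa10, Uqcrfs1 and Ndufb2. In Ndufb2 the printed copy is a second TGACG, and the full CRE lay 21 bp from the centre of the vehicle peak. Ndufa11, which encodes another complex I subunit, also held the full CRE, and its promoter had no CREB1 peak in either list. Its site is at chr17:56717604-56717611, and the stretch chr17:56717591-56717621 around it is printed for comparison.
Ndufa11: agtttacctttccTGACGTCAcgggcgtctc

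**Figure D1:**
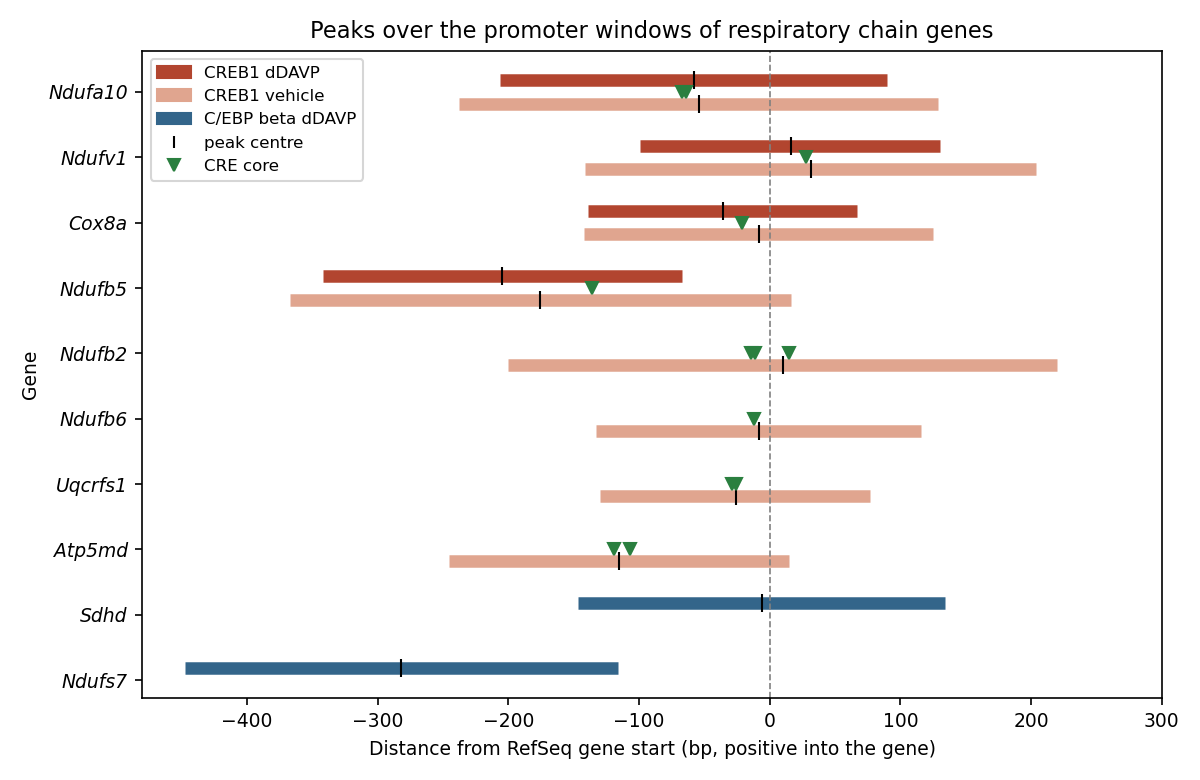
Peaks over promoter windows, drawn by distance from the RefSeq gene start (bp, positive into the gene). Bars are the peak of each list, ticks are peak centres and triangles are copies of the CRE core TGACG in the window. Each CREB1 bar covers a triangle, and the bars after dDAVP (upper) lie within those after vehicle (lower) in the 4 genes that have both.

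The first comparison asked which respiratory chain genes had a CREB1 peak after dDAVP and after vehicle. A gene counted as near a peak when the peak centre lay within 5000 bp of either end of the gene. After dDAVP 5 of 96 genes were near a CREB1 peak (5.21%, 95% Wilson interval 2.24 to 11.6, which covers counting error alone), and 2.67% of all protein-coding genes were. After vehicle 11 of 96 were (11.5%, 6.52 to 19.4), against 5.05% of all genes. Within 1000 bp these were 4 of 96 after dDAVP (4.17%, 1.63 to 10.2), against 2.11% of all genes, and 8 of 96 after vehicle (8.33%, 4.28 to 15.6), against 3.94%. Respiratory chain genes lie close to other genes: 79.2% of them, and 46.5% of all protein-coding genes, had the end of another gene within 5000 bp of their own. The part of this closeness in the counts was not tested.

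Other distances were read in the same way. Within 500 bp the counts were those at 1000 bp, with 4 genes near CREB1 after dDAVP, against 2.00% of all genes, and 8 after vehicle, against 3.72%. Measured from listed gene starts alone, 4 of 78 genes were within 5000 bp of a CREB1 peak after dDAVP (5.13%), against 2.53% of the 17274 genes with a start, and 10 of 78 after vehicle (12.8%), against 4.74%. Within 50000 bp there were 10 of 96 after dDAVP (10.4%), against 6.97% of all genes, and 19 of 96 after vehicle (19.8%), against 12.5%.

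All 5 genes near a CREB1 peak after dDAVP were also near one after vehicle, as were 568 of the 577 such genes in the whole genome (98.4%). In the other direction 5 of 11 respiratory chain genes near a vehicle peak (45.5%) and 568 of 1092 of all genes (52.0%) were near a dDAVP peak. The shares of the respiratory chain genes were close to those of the whole lists, and the dDAVP list is the shorter one, with 406 peaks against 785 after vehicle.

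Ndufa10 had a CREB1 peak of 297 bp after dDAVP (chr1:92473668-92473964) and of 368 bp after vehicle (chr1:92473629-92473996). The centre lay 58 bp before the listed gene start after dDAVP and 54 bp before it after vehicle. The RefSeq gene used for the counts reaches past that listed start. Both centres lay inside it, 9 bp from its end after dDAVP and 13 bp after vehicle, and so did the full CRE. At Ndufv1 the peak was 230 bp wide after dDAVP (chr19:4012625-4012854) and 346 bp after vehicle (chr19:4012551-4012896), centred 16 and 32 bp into the gene in that order. Both of these complex I genes were the only protein-coding gene with an end within 5000 bp of the peak.

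The Cox8a peak measured 207 bp after dDAVP (chr19:7217549-7217755) and 268 bp after vehicle (chr19:7217491-7217758), with centres 36 and 8 bp before the start. The Ndufb5 peak measured 276 bp after dDAVP (chr3:32736721-32736996) and 384 bp after vehicle (chr3:32736696-32737079). Its centre lay 205 bp before the start after dDAVP and 176 bp before it after vehicle. An end of Mrpl47, a mitochondrial ribosomal protein gene, was nearer, at 103 and 132 bp.

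The 5th gene, Cox6a1, a nuclear-encoded subunit of complex IV, was near a peak through its neighbours. The peak (chr5:115341101-115341382 after dDAVP, chr5:115341089-115341401 after vehicle) lay 4411 and 4407 bp from an end of Cox6a1, but 10 and 14 bp from an end of Triap1 and 80 and 84 bp from an end of Gatc, which encodes a subunit of the mitochondrial glutamyl-tRNA amidotransferase. The start of Cox6a1 was farther still, 7717 bp from the peak centre after dDAVP and 7713 bp after vehicle. In all 5 genes the whole dDAVP interval lay inside the vehicle interval. Whether that comes from how replicates were combined was not tested.

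The 6 genes near a peak of the vehicle list alone fell into 2 kinds. Ndufb2, Ndufb6, Uqcrfs1 and Atp5md had the peak over the promoter. Ndufb2 had the widest CREB1 peak at any respiratory chain gene, 421 bp (chr6:39592365-39592785), which ranked 68 among the 785 widths and was centred 10 bp into the gene. The Ndufb6 peak was 250 bp wide (chr4:40279305-40279554), centred 8 bp before the start. The Uqcrfs1 peak was 208 bp wide (chr13:30545239-30545446), centred 26 bp before the start, and ranked 704 among the 785 widths.

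The Atp5md peak was 261 bp wide (chr19:47090632-47090892) and lay 115 bp before the start, with an end of Pdcd11 nearer at 27 bp. At Ndufb10, a membrane arm subunit of complex I, the peak (chr17:24719851-24720136) was 2067 bp from a gene end, nearer to Rps2 (1872 bp) and Rnf151 (1936 bp). At Atp5d, the delta subunit of the ATP synthase stalk, the peak (chr10:80141323-80141585) lay inside the gene, 821 bp before a listed RefSeq start and 2756 bp from a gene end, with an end of Cbarp nearer at 1099 bp.

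Widths were 268 to 384 bp (median 346) for the 5 vehicle peaks at these genes that overlapped a dDAVP peak and 208 to 421 bp (median 262) for the 6 that did not. The same order held in the whole vehicle list, with medians of 343 and 244 bp. Ndufb2 stood against it, with the widest peak and no dDAVP peak. Among these 6 sites the nearest dDAVP peak was 12057 bp away at Ndufb10 and 25496 bp away at Atp5d, and the other 4 were farther than that, so no dDAVP peak lay just past the edge of the vehicle interval.

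**Figure D2:**
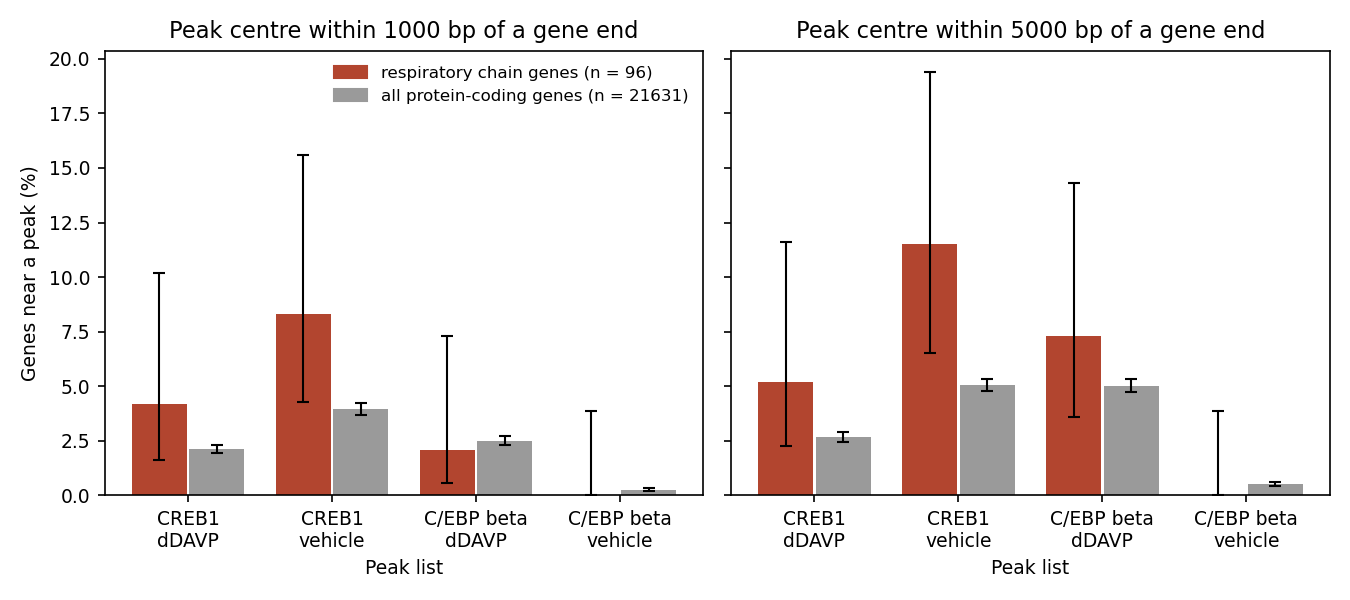
Genes near a peak (%) in each of the 4 peak lists, for 96 respiratory chain genes and all 21631 protein-coding genes, at 1000 bp (left) and 5000 bp (right). Bars are shares and error bars are 95% Wilson intervals for counting error alone. Respiratory chain genes had 5.21% after dDAVP and 11.5% after vehicle near a CREB1 peak at 5000 bp, against 2.67% and 5.05% of all genes. None was near a C/EBP beta peak after vehicle, against 0.513% of all genes at 5000 bp.

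C/EBP beta was read over the same 96 genes. After dDAVP 7 of 96 respiratory chain genes were near a peak (7.29%, 3.58 to 14.3), against 5.01% of all genes, and after vehicle 0 of 96 were, which allows a share of up to 3.12% at 3 counts (Wilson upper bound 3.85%), against 0.513% of all genes. Within 1000 bp 2 of 96 genes were near a dDAVP peak (2.08%, 0.573 to 7.28), against 2.51% of all genes, and 0 of 96 were near a vehicle peak, against 0.254%. Within 500 bp the 2 and 0 genes stood against 1.79% and 0.222% of all genes, after dDAVP and after vehicle. From gene starts alone 3 of 78 were within 5000 bp after dDAVP (3.85%), against 4.14% of all genes with a start, and 0 of 78 after vehicle, against 0.370%. Within 50000 bp they were 26 of 96 after dDAVP (27.1%), against 18.9% of all genes, and 1 of 96 after vehicle (1.04%), against 1.96%. Up to 5000 bp these shares were near those of all genes. The dDAVP list is the longer one here, with 2401 peaks against 209 after vehicle, so the absence of vehicle peaks at the 7 genes is not a result about these genes.

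The 2 C/EBP beta peaks over a promoter were at Sdhd, which encodes a membrane anchor of succinate dehydrogenase, and at Ndufs7, a core subunit of complex I with an iron-sulfur cluster on the path to ubiquinone. Their windows are printed because they carry the only C/EBP beta peaks at respiratory chain promoters. They lie at chr9:50603800-50604099 (minus) for Sdhd and at chr10:80249199-80249498 (plus) for Ndufs7. Neither held the C/EBP motif TTGCNNAA or the C/EBP-ATF motif TGATGNAA on either strand, and capitals mark the ETS motif CCGGAA, which both held. The ETS motif was in 34.9% of all respiratory chain windows. Of all 296 windows with a C/EBP beta peak, 96 held it (32.4%). The Ndufs7 window covers less of the peak than lies outside it, so most of that peak was not searched, and the Ndufs7 ETS motif lies outside the peak.
Sdhd: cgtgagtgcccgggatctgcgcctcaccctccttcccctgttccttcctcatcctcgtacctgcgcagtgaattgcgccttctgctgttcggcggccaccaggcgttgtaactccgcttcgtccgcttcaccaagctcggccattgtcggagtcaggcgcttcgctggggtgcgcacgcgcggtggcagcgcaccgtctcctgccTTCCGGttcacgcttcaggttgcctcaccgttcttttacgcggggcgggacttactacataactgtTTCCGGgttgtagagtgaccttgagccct
Ndufs7: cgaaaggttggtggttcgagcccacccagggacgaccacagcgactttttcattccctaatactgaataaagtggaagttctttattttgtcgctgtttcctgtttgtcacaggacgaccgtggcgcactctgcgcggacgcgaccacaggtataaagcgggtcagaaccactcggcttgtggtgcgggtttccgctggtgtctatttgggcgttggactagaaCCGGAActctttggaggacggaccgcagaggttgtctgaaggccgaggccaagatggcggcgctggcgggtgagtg

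The Sdhd peak (chr9:50603715-50603996) was 282 bp wide with a deposited score of 209, a value of the authors whose scale is not stated and which is used here only to rank peaks within a list. It was centred 6 bp before the start of Sdhd and 46 bp from an end of Timm8b, a chaperone gene of mitochondrial import. Of its 282 bp, 197 lay in the printed window, and the rest was not searched for motifs. The Ndufs7 peak (chr10:80249002-80249333) was 332 bp wide, scored 587 and ranked 316 among the 2401 scores. It lay 62 bp from the gene end in the RefSeq table and 282 bp before the gene start that the printed window is built on, so 135 of its 332 bp lay in that window.

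The other 5 genes were near a C/EBP beta peak that lay closer to another gene. The peak near Ndufs8, a core iron-sulfur subunit of complex I, scored 128 and lay 1473 bp from Ndufs8 (chr19:3907272-3907509), with an end of Tcirg1 at 257 bp. The peak near Ndufs3, another core subunit, scored 88 (chr2:90906800-90907037), 2197 bp from Ndufs3 and 2178 bp from Kbtbd4. The peak near Cox6b1, a complex IV subunit, scored 152 (chr7:30614495-30614720), 2364 bp away, with Upk1a at 1873 bp.

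Ndufa7, an accessory subunit, was 4731 bp from a peak with a score of 92 (chr17:33842945-33843149) that lay 44 bp from Cd320. Ndufa4l2, a relative of Ndufa4 known to be induced by hypoxia, was 4780 bp from a peak with a score of 109 (chr10:127521831-127522038) that lay 510 bp from Shmt2, the mitochondrial serine hydroxymethyltransferase. The scores of these 5 peaks, 88 to 152, were below the list's median of 197, and those of Ndufs7 and Sdhd were above it.

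CREB1 and C/EBP beta were then compared over the same genes. No respiratory chain gene was near peaks of both factors, with 5 genes near CREB1 and 7 near C/EBP beta after dDAVP, and 11 and 0 after vehicle. Of all genes 72 of 21631 were near both after dDAVP (0.333%) and 13 after vehicle (0.0601%), so an empty overlap among 96 genes is close to the genome's share. Of the genes near a CREB1 peak after vehicle, 8 of 11 respiratory chain genes had it within 500 bp (72.7%), against 73.6% in all genes. For C/EBP beta after dDAVP it was 2 of 7 (28.6%), against 35.7% in all genes, so the difference between the factors is that of the whole lists.

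By complex, 11 of the 49 Nduf genes, 1 of 4 Sdh genes, 1 of 8 Uqcr genes, 3 of 18 Cox genes and 2 of 17 Atp5 genes were near a peak in any list. That was 18 of 96 in all (18.8%), against 9.39% of all protein-coding genes, so a count of 0 in a group of 7 or 8 genes is no result about that group. Among the 7 nuclear core subunits of complex I, Ndufv1 was near CREB1 and Ndufs3, Ndufs7 and Ndufs8 were near C/EBP beta after dDAVP. The peaks near Ndufs3 and Ndufs8 lay closer to another gene, as given above. Among 34 further Nduf genes, mostly accessory subunits, 5 were near CREB1 after vehicle and 2 near C/EBP beta after dDAVP. Of all genes 5.05% were near CREB1 after vehicle and 5.01% near C/EBP beta after dDAVP. A group of 7 genes is too small to compare with these shares. None of the 8 Ndufaf assembly factors was near a peak. In complex II Sdha, Sdhb and Sdhc had none.

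None of the 7 tissue-restricted forms of complex IV, Cox4i2, Cox6a2, Cox6b2, Cox7a1, Cox7b2, Cox8b and Cox8c, was near a peak. The 3 Cox genes near one were Cox6a1, Cox6b1 and Cox8a. In complex III, Uqcrfs1 was the only one of 8 genes near a peak. In complex V, 15 of 17 were near none, among them Atp5a1, Atp5b and Atp5c1, which encode the alpha, beta and gamma subunits of the catalytic head and stalk. The 78 genes near no peak in any list make up the rest of the 96. Just outside the 5000 bp limit was Ndufv3, 7778 bp from a CREB1 peak after dDAVP and 7781 bp after vehicle, and Ndufa2, 7313 bp from a C/EBP beta peak after dDAVP. Just inside were Cox6a1 and Ndufa4l2, at the distances given above.

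**Figure D3:**
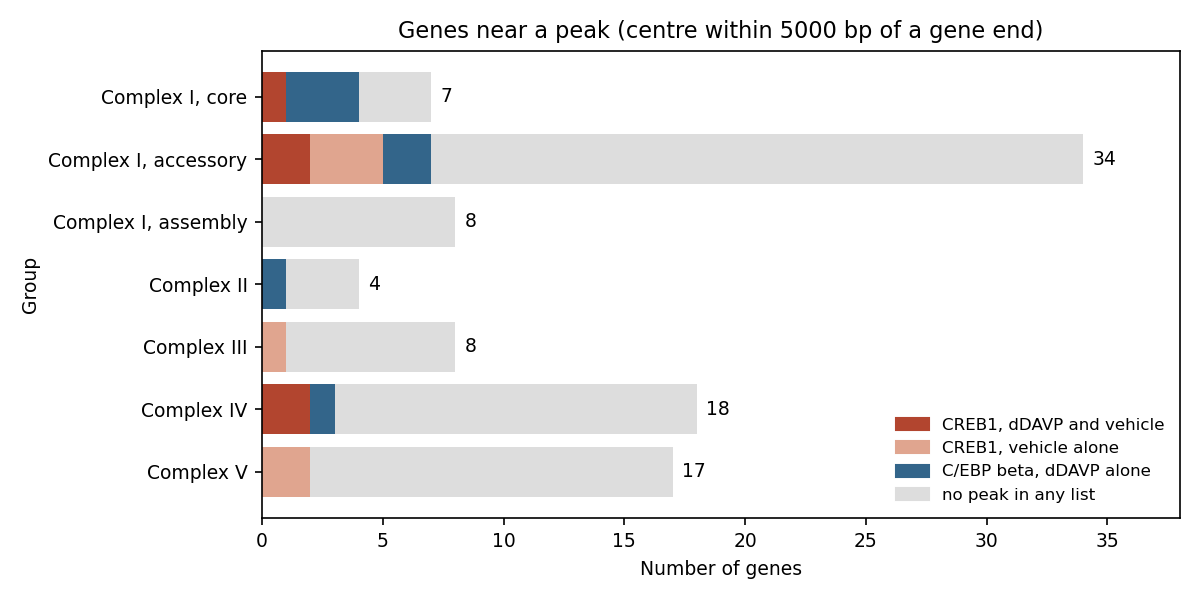
Number of respiratory chain genes per group, divided by the peak lists that have a centre within 5000 bp of a gene end (numbers at the bars give the genes in the group). The 49 Nduf genes, drawn as complex I by symbol alone, have genes near either factor, 11 in all. None of the 8 Ndufaf assembly factors is near a peak, and 9.39% of all protein-coding genes are near one.

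Promoter windows were given for 78 of the 96 genes, with 83 windows in all because 5 genes have 2 listed starts, and were compared with all 21045 windows of protein-coding genes. Motifs were searched on both strands, and a window was counted once whatever its number of copies. TGACG, which every full CRE holds on both strands, was in 30 of 83 respiratory chain windows (36.1%) and in 23.8% of all windows. The full CRE was in 4 of 83 (4.82%) and in 2.26% of all. TGACG was in 8 of 8 respiratory chain windows with a CREB1 peak and in 22 of 75 without (29.3%). In all windows with a CREB1 peak it was in 670 of 784 (85.5%), and in those without in 21.4%. A TGACG alone therefore did not mark the peaks: 20 genes held one and had no CREB1 peak over the window.

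The full CRE was in 3 of 8 respiratory chain windows with a CREB1 peak (37.5%) and 1 of 75 without (1.33%), and in 23.6% and 1.43% of all windows in that order. The motif of NRF1, GCATGCGC, a fixed core of a longer site, was in 12 of 83 respiratory chain windows (14.5%) and in 3.54% of all. Atp5g2, Cox6a1, Ndufa8, Sdhb and Uqcrc1 were among the genes that held it. None of the 8 windows with a CREB1 peak did, and 12 of the 75 without did (16.0%). In all genes it was in 4.59% of windows with a CREB1 peak and in 3.50% of those without. A count of 0 among 8 windows is too small to compare with any of these shares. The ETS motif CCGGAA was in 29 of 83 windows (34.9%) and in 18.9% of all, and in 6 of the 8 with a CREB1 peak (75.0%), against 43.0% of all windows with a CREB1 peak.

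The YY1 motif ATGGCG was in 23 of 83 windows (27.7%) and in 11.0% of all. Of the 8 with a CREB1 peak Ndufb5 held it (12.5%), against 26.7% of all windows with a CREB1 peak. The SP1 motif GGGCGG was in 36 of 83 (43.4%) and in 46.7% of all. It was in 3 of the 8 with a CREB1 peak (37.5%), against 66.8% of all windows with a CREB1 peak. The C/EBP motif was in 10 of 83 (12.0%) and in 10.3% of all. Uqcrfs1 was the one gene of the 8 with a CREB1 peak that held it (12.5%), against 8.04% of all windows with a CREB1 peak. The C/EBP motif was in neither of the 2 windows with a C/EBP beta peak, against 36.5% of the 296 such windows in all genes. Parts of both peaks lay outside these windows, and 2 windows are too few to compare with that share. The C/EBP-ATF motif was in 0 of 83 and in 3.45% of all. These shares are descriptions of letters in a window, with no test, and windows of 2 genes can overlap. The GC content was alike, with a median of 58.3% for respiratory chain windows and 56.7% for all.

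**Figure D4:**
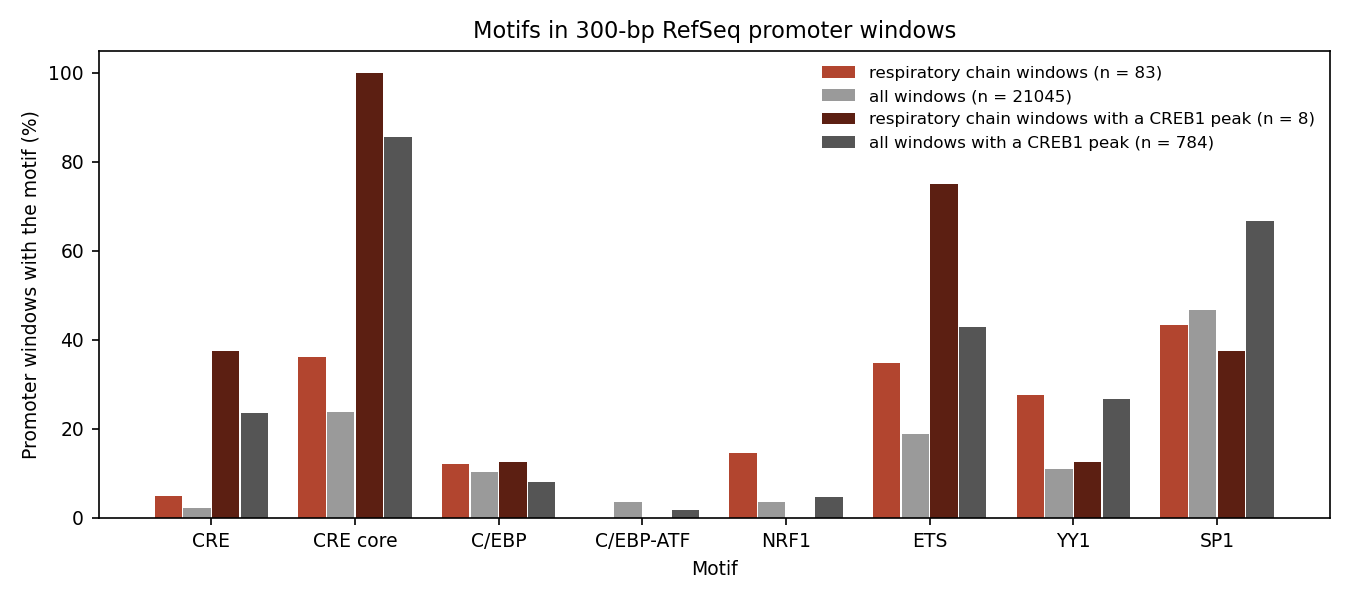
Share of promoter windows (%) that hold each motif on either strand, for respiratory chain windows and all windows, and for those with a CREB1 peak. The CRE core TGACG is in 100% of the 8 respiratory chain windows with a CREB1 peak and in 85.5% of all windows with one. The NRF1 motif is in none of the 8 and in 4.59% of all windows with a CREB1 peak, and 8 windows are too few to compare with that share.

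Other genes of the pathway were taken from a list of 43 assembly factors outside the symbol rule. CREB1 peaks were near 7 of 43 after dDAVP (16.3%) and 11 of 43 after vehicle (25.6%), against 2.67% and 5.05% of all genes. For C/EBP beta the count was 3 of 43 after dDAVP (6.98%), close to the 5.01% of all genes, and 0 after vehicle, against 0.513%. The closest for CREB1 after dDAVP were Acad9 (23 bp), Nubpl (41 bp) and Foxred1 (112 bp), which help to assemble complex I, and Coa5 (58 bp), Pet100 (151 bp) and Cox18 (483 bp), which help to assemble complex IV. The other gene was Atpaf2 (3403 bp), an assembly factor of ATP synthase. After vehicle these 7 genes were near a peak too, joined by Cox14 (107 bp) and Lrpprc (145 bp), which serve complex IV, and by Bcs1l (61 bp) and Lyrm7 (273 bp), which serve the insertion of the Rieske protein. For C/EBP beta after dDAVP they were Taco1 (130 bp), Cox19 (189 bp) and Cox15 (537 bp), all of complex IV. By comparison, mitochondrial ribosomal protein genes (Mrpl or Mrps and a digit) had CREB1 peaks near 5 of 78 after dDAVP (6.41%) and 8 of 78 after vehicle (10.3%), and C/EBP beta peaks near 3 of 78 after dDAVP (3.85%) and 0 of 78 after vehicle. Differences between these lists and the respiratory chain genes were not tested.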

How the data were processed

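The labels describe 22 samples: 12 immunoprecipitated and 10 input libraries, 2 of the inputs named for both antibodies. BWA, SAMtools, MACS2, bedtools and mm10 are named in the submitters' processing notes, without versions or roles. The authors deposited 1 BED list per antibody and treatment, and the way replicates were combined is not given in the sources used here. C/EBP beta lists also hold the authors' deposited score per peak, and their peak names carry replicate 1 and the MACS2 settings of bandwidth 300, 1 duplicate and q of 0.01, per the deposited lists. CREB1 peaks were ranked by width, since their lists held positions alone. Genes came from a RefSeq table of GRCm38.p6, the assembly of mm10, with 21631 protein-coding genes on 20 chromosomes, and starts, strands and sequences from RefSeq promoter windows. The 2 CREB1 peaks per list on contigs entered no gene count. Positions count from 1.

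Counts were made in Python 3.11.15 with pandas 2.3.3 and scipy 1.17.1, and the distance code was tested on simulated data. No set test and no replicate test was made. Members, lists and motifs were chosen with earlier results of these data known. Each gene near a peak in any list was named. Full windows were printed for genes with CREB1 peaks over them in both treatments or a C/EBP beta peak, and 31-base stretches for the other genes with a CREB1 peak there. Alternatives changed the distance, the peak point, the gene end, the assignment, the peak threshold, the list length and the overlap. Sequences and motifs of 18 genes without a window were not analysed here, and single values of some genes are not reported here.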

Additional observations from a re-analysis of the deposited data

How the results depend on the processing

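Of 31 alternatives to counts above 0, 14 stayed within 1.5 times the reported count and 17 did not. Of 29 alternatives to counts of 0, 3 gave a count above 0, and most of the others could not raise it. With each peak given to its nearest gene alone, 3 genes were near CREB1 after dDAVP (3.12%, against 1.79% of all genes). After vehicle 6 were (6.25%, against 3.43%), and 3 were in both treatments. Near C/EBP beta after dDAVP 2 were (2.08%, against 3.89%). Within 500 bp and within 1000 bp, 2 genes were near C/EBP beta after dDAVP, and 3 were with gene starts alone. Within 50000 bp, 10 genes were near CREB1 after dDAVP, 19 after vehicle and 10 in both, 26 were near C/EBP beta after dDAVP, 1 after vehicle and 1 in both, and 4 were near both factors after dDAVP. In the upper 50% of peaks by width or score, 3 genes were near CREB1 after dDAVP (3.12%, against 1.35% of all genes). After vehicle 5 were (5.21%, against 2.59%), and 3 were in both. Near C/EBP beta after dDAVP 2 were (2.08%, against 2.73%). With the longer list cut to the length of the shorter, 6 genes were near CREB1 after vehicle (6.25%, against 2.69% of all genes). Near C/EBP beta after dDAVP 0 were, against 0.596% of all genes. These alternatives use fewer peaks, another distance or fewer genes per peak by construction. Asking that the peaks overlap by 50% of each left the CREB1 count in both treatments at 5. No paired analysis was possible because there is 1 list per antibody and treatment and no values per replicate, and for the same reason no replicate could be left out. Read depth is unknown.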

Other observations

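Other mitochondrial genes were read in the same way, with no test. Of 19 genes of the tricarboxylic acid cycle and of pyruvate entry, 3 were near a CREB1 peak after dDAVP (15.8%) and 4 after vehicle (21.1%), against 2.67% and 5.05% of all genes. Among them were Ogdh (5 bp after dDAVP, 2 bp after vehicle), a subunit of the oxoglutarate dehydrogenase complex, Pcx (241 and 169 bp), pyruvate carboxylase, and Pdhb after vehicle (226 bp). None of the 19 was near a C/EBP beta peak, which allows up to 15.8% at 3 counts (95% Wilson upper bound 16.8%). Of all genes 5.01% were after dDAVP and 0.513% after vehicle. Of 22 genes of cytochrome c and coenzyme Q, 2 were near CREB1 after dDAVP, Coq10b (55 bp) and Coq7 (245 bp), and 4 after vehicle, with Coq9 (86 bp) and Cycs (100 bp), the gene of cytochrome c, added. For CREB1 these counts were 9.09% and 18.2%, against 2.67% and 5.05% of all genes. Coq5 (10 bp) and Pdss1 (950 bp) were near C/EBP beta after dDAVP (9.09%, against 5.01% of all genes), and none after vehicle, against 0.513%.

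Of 22 regulators of mitochondrial biogenesis and mtDNA expression, 3 were near CREB1 after dDAVP (13.6%) and 5 after vehicle (22.7%). The closest after dDAVP were Mterf1a (33 bp), Yy1 (188 bp) and Pprc1 (2970 bp), and after vehicle Tfb1m (62 bp) and Esrra (1190 bp) were added. Over all genes, the CREB1 shares were 2.67% after dDAVP and 5.05% after vehicle, and the C/EBP beta shares were 5.01% and 0.513%. These shares serve for each list in this paragraph. Esrra, an orphan receptor of energy metabolism, had a C/EBP beta peak after dDAVP at 31 bp, and Polg2 at 2365 bp (9.09% of the list). Of 25 Tomm and Timm import genes, 2 were near CREB1 after dDAVP (8.0%) and 3 after vehicle (12.0%). They were Timm44, Tomm6 and, after vehicle alone, Tomm40. Timm8b and Tomm6 were near C/EBP beta after dDAVP (8.0%). Neither of these last 2 lists had a gene near C/EBP beta after vehicle. A symbol rule for cytosolic ribosomal proteins, which also takes in kinases such as Rps6kb2, had 10 of 97 genes near CREB1 after dDAVP (10.3%). After vehicle 17 were (17.5%). Near C/EBP beta were 5 after dDAVP (5.15%), close to the 5.01% of all genes, and 0 after vehicle.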
